A study of Mus musculus with 2 samples.

Results

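The 4 Mef2 genes (Mef2a, Mef2b, Mef2c and Mef2d) and the 4 genes of the class IIa histone deacetylases (Hdac4, Hdac5, Hdac7 and Hdac9) were followed in total RNA of the mouse heart. They were taken by symbol, all 8 were found, and they are 8 of 55536 annotated mouse genes in the gene tables. The hearts came from 2 female mice of the strain B6CASTF1/J, a first-generation hybrid of C57BL/6J and CAST/EiJ, at an age of 2 months. Each heart gave 1 library from 300 ng of total RNA after reduction of ribosomal RNA, with ERCC spike-in RNA added. There was no treatment and no second group, so the data describe 1 group of 2 animals, named animal 2 and animal 1 after the replicate numbers in the labels. The labels list separate tissue samples for them but enter 1 shared donor, so a p-value here measures the difference between 2 libraries only. Each library had 1 gene table and 2 transcript tables, and the alleles of the parent strains were not separated in any of them.

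MEF2 proteins are MADS-box transcription factors that bind A/T-rich sites in muscle, neuronal, vascular and immune genes, and in the heart they activate genes of the sarcomere and of energy metabolism. Class IIa deacetylases bind MEF2 through a segment near their amino terminus and hold its target genes silent. Kinases such as those of the CaM kinase and protein kinase D families phosphorylate the deacetylases, 14-3-3 proteins then bind them, and they leave the nucleus. Their own deacetylase domain has little activity towards acetyl-lysine, because a histidine stands where the active class I enzymes have a catalytic tyrosine.

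The libraries held 41790009 gene-assigned reads in animal 2 and 41862417 in animal 1, and 3 reads, the limit that a count of 0 allows, equal 0.0718 and 0.0717 CPM (counts scaled to the library's total). Intervals and limits cover counting error only. Levels are in TPM, a measure per transcript length that is scaled to the same sum in each library. The summed level of 5 cardiomyocyte markers was 17342 TPM in animal 2 and 15398 TPM in animal 1. The marker sums of endothelial cells (203 and 158 TPM), fibroblasts (283 and 216 TPM), mural cells (236 and 168 TPM) and macrophages (76.0 and 55.8 TPM) were all below it in both hearts. Those of B cells, T cells, skeletal muscle and nerve were between 1.48 and 3.87 TPM, and the adipocyte sum was 55.2 TPM in animal 2 and 21.3 TPM in animal 1. No marker on these lists was at 0 reads in both libraries.

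Mef2a (ENSMUSG00000030557.17, mm10 chr7:67231163-67372858, minus strand) encodes a MEF2 factor of adult striated muscle. Mef2b (ENSMUSG00000079033.10, chr8:70139711-70167488, plus strand) encodes the member best known from germinal-centre B cells. Mef2c (ENSMUSG00000005583.16, chr13:83504034-83667080, plus strand) encodes the member required for formation of the embryonic heart. Mef2d (ENSMUSG00000001419.17, chr3:88142372-88172086, plus strand) encodes a factor that in mice takes part in stress-dependent remodelling of the adult heart. The first 2 coding exons have the same length in all 4 genes, 258 bases or 86 codons, and encode the DNA-binding MADS box and the adjoining MEF2 domain. Of the 258 bases, 171 were the same in all 4 genes, and 72 of the 86 codons encoded the same residue in all 4. Mef2a and Mef2c shared the residue at 85 of 86 codons, and Mef2b shared it with each of the others at 73. The first 60 coding bases, from the start codon and across the first coding intron, show how closely the DNA-binding ends match. Capitals mark bases shared by all 4 genes.
Mef2a: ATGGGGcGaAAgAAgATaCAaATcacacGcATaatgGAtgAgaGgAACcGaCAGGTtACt
Mef2b: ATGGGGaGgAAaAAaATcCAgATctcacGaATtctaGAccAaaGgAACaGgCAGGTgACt
Mef2c: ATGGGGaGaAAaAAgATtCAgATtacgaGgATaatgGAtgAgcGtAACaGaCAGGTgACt
Mef2d: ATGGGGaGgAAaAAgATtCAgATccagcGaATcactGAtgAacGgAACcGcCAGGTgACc

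Of the 4 MEF2 genes 3 were well expressed, led by Mef2a and Mef2d, and Mef2b was at the limit of detection. Mef2a had 62.1 TPM from 8340 reads in animal 2 and 51.9 TPM from 7815 reads in animal 1, the highest level of the 8 genes in both hearts. Mef2d had 51.7 TPM from 6448 reads in animal 2 and 46.2 TPM from 6575 reads in animal 1. Mef2c had 24.9 TPM from 2424 reads in animal 2 and 21.6 TPM from 2442 reads in animal 1, between the levels of Hdac5 and Hdac4 in both hearts. Mef2b had 4 reads (0.11 TPM) in animal 2 and 3 reads (0.07 TPM) in animal 1, so its level could not be told from the limit that a count of 0 allows. Within the summed MEF2 level, Mef2a made up 44.0% ± 0.999, Mef2d 37.9% ± 0.951, Mef2c 18.0% ± 0.0632 and Mef2b 0.0689% ± 0.0147 (SD, n = 2). The second transcript table gave nearly the same division, with 43.5% ± 0.854 for Mef2a and 38.5% ± 1.06 for Mef2d (SD, n = 2). Lysmd4 lies on the strand opposite Mef2a and overlaps it by 76168 bases, and it had 659 reads in animal 2 and 629 in animal 1. Borcs8 overlaps Mef2b on the same strand by 7609 bases and had 210 and 207 reads, so the few reads given to Mef2b are uncertain.

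Among the class IIa genes Hdac5 was highest by gene level. Hdac5 (ENSMUSG00000008855.17, chr11:102194432-102230166, minus strand), whose loss in mice sensitises the heart to hypertrophic stress, had 49.8 TPM from 3304 reads in animal 2 and 47.0 TPM from 3150 reads in animal 1. Hdac4 (ENSMUSG00000026313.16, chr1:91928779-92195699, minus strand), known for restraining chondrocyte hypertrophy, had 18.2 TPM from 1805 reads in animal 2 and 15.3 TPM from 1692 reads in animal 1. Hdac7 (ENSMUSG00000022475.19, chr15:97792664-97844502, minus strand), needed for the integrity of endothelium in mouse embryos, had 10.4 TPM from 1121 reads in animal 2 and 9.07 TPM from 1042 reads in animal 1. Hdac9 (ENSMUSG00000004698.10, chr12:34047580-34917095, minus strand), whose loss also sensitises the mouse heart to hypertrophic stress, had 8.25 TPM from 993 reads in animal 2 and 7.94 TPM from 1004 reads in animal 1. All 4 class IIa genes were thus expressed within a range of 7.94 to 49.8 TPM. Hdac5 made up 58.4% ± 1.25 of the summed class IIa level, Hdac4 20.1% ± 1.19, Hdac7 11.7% ± 0.407 and Hdac9 9.77% ± 0.348 (SD, n = 2). In the second transcript table the share of Hdac5 was 50.1% ± 0.566 (SD, n = 2).

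Ordered by mean gene level, the genes ran Mef2a, Mef2d, Hdac5, Mef2c, Hdac4, Hdac7, Hdac9 and Mef2b, and both quantifications gave this order. Neighbours were called separate where the ranges over both animals did not overlap and both animals gave the same order. In the gene table only Mef2d and Hdac5 were not separate. Mef2d was 1.04 times Hdac5 in animal 2 and 0.984 times Hdac5 in animal 1. In the second transcript table they were separate, Mef2d being 1.48 times Hdac5 in animal 2 and 1.41 times in animal 1. Among 22015 nuclear protein-coding genes ranked by mean level, Mef2a stood at place 953, Mef2d at 1109, Hdac5 at 1125 and Hdac9 at 5887.

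**Figure D1:**
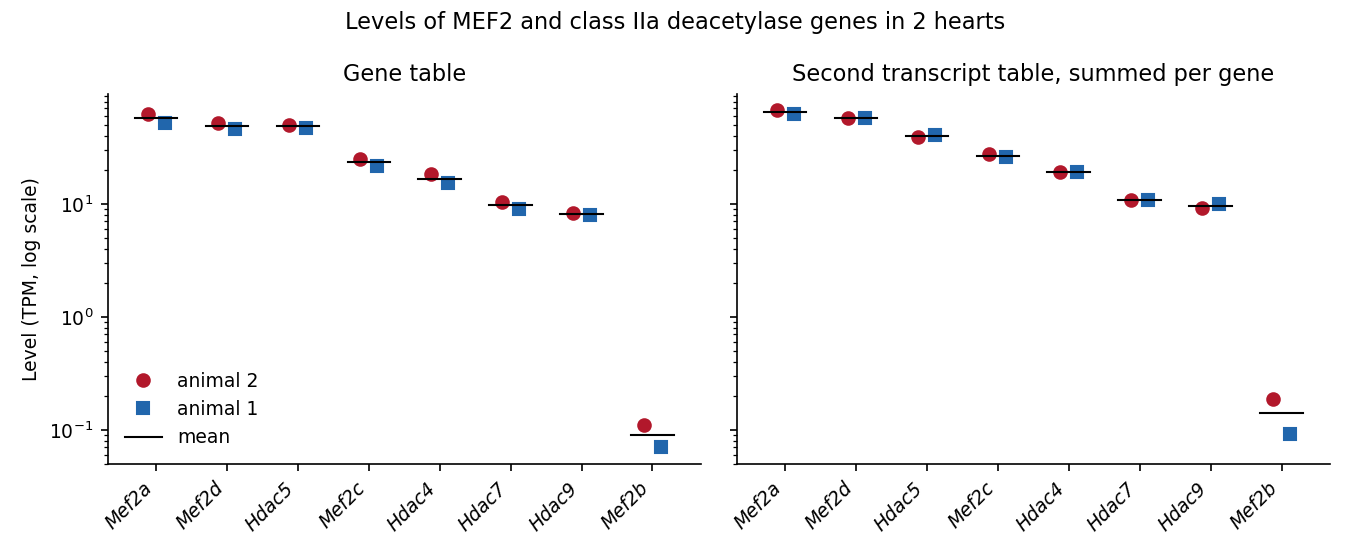
Level of each gene in TPM on a log scale in animal 2 (circles) and animal 1 (squares), with the mean as a line, in the gene table and in the second transcript table summed per gene. Apart from Mef2b the genes sit between 7.94 and 67.1 TPM, and Mef2b at 0.188 TPM or below, in both tables.

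The class IIa genes together were below the MEF2 genes together in both hearts. The class IIa sum was 86.6 TPM in animal 2 and 79.3 TPM in animal 1 (83.0 ± 5.20, SD, n = 2), and the MEF2 sum was 138.8 and 119.7 TPM (129.3 ± 13.5). The ratio of class IIa to MEF2 was 0.624 in animal 2 and 0.662 in animal 1. In the second transcript table it was 0.511 and 0.551, outside the range of the gene table. Counting only transcripts annotated with a complete coding sequence, a choice made after seeing the data, it was 0.300 ± 0.00518 in the first transcript table and 0.318 ± 0.00145 in the second (SD, n = 2).

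None of the members differed 2-fold between the animals. For every gene with at least 20 reads, the split of its reads between the libraries was set against their TMM-scaled sizes (edgeR's trimmed mean of M-values). The test was an exact binomial one, two-sided, with Benjamini-Hochberg adjustment at 0.05. Of the 7 members tested, 0 were called at a minimum of 2-fold, where 1.38% of all 16133 genes tested were (222 genes). With DESeq2's size factors it was also 0 of 7. An unadjusted p under 0.05 was found for 2 of the 7, Mef2c and Mef2d, and for 21.9% of all genes tested. With no fold minimum 1 member was called, where 11.3% of all genes were. That member was Mef2d, lower in animal 2 with a ratio of 0.930 (95% interval 0.898 to 0.962, exact binomial test, adjusted p = 0.000643). Under total read counts in place of TMM its ratio was 0.982 (exact binomial test, adjusted p = 0.548), and Mef2a was called in its place with a ratio of 1.07 (adjusted p = 0.000273), where 20.9% of all genes were called. The log2 ratios of the 7 members ran between -0.11 and 0.03, while the middle 95% of all genes tested ran between -0.85 and 0.67. TPM itself was higher in animal 2 for all 8 members, and the median log2 TPM ratio was 0.20 over the 7 members tested and 0.22 over all genes tested. Mef2b was below 20 reads and was not tested.

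**Figure D2:**
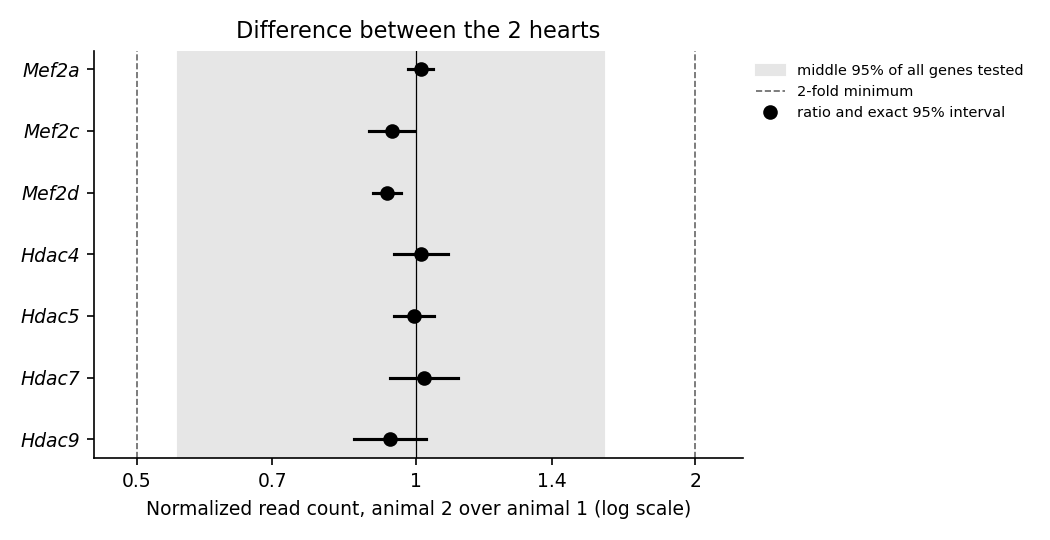
Normalized read count in animal 2 over animal 1 on a log scale, as points with exact 95% intervals, for the 7 members tested; grey marks the middle 95% of all genes tested and dashed lines the 2-fold minimum. All 7 points lie between 0.930 and 1.02.

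Several marker lists of other cell types moved between the hearts. None of the 5 B cell, 3 T cell and 4 nerve markers tested was called, even with no fold minimum. With no fold minimum, 4 of 5 endothelial, 4 of 5 fibroblast, 5 of 5 mural and 3 of 5 macrophage markers were called higher in animal 2, with median log2 ratios of 0.17, 0.27, 0.25 and 0.23. Of 5 cardiomyocyte markers 3 were called lower in animal 2, with a median of -0.03. Of all genes tested, 6.6% were called higher in animal 2 with no fold minimum and 4.75% lower. These marker calls rest on the TMM sizes and were not repeated under total read counts. The unscaled reads of the cardiomyocyte markers summed to 1473633 in animal 2 and 1462883 in animal 1. The adipocyte markers Adipoq and Cfd passed the 2-fold minimum with ratios of 2.75 and 2.30. The skeletal muscle gene Myh1 passed it in the other direction. Myh1 had 1 read (0.01 TPM) in animal 2 and 22 reads (0.10 TPM) in animal 1. The other skeletal muscle markers tested, Tnni2 and Actn3, were not called, and that list summed to 1.54 and 1.48 TPM. The part of these shifts in the small ratios of the members was not tested. In bulk RNA fewer cells of a type and less RNA per cell cannot be told apart.

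Genes of the pathway were read as 8 lists holding 81 genes, of which 78 were tested. At the 2-fold minimum 0 of 78 were called, against the 1.38% of all genes, also with DESeq2's size factors. With no fold minimum 17 were called, against 11.3% of all genes. Of these 13 were higher in animal 2, as were 6.6% of all genes, and 4 lower, as were 4.75%. Under total read counts they were 35 and 1, against 18.6% and 2.34% of all genes. The test calls smaller ratios in genes with more reads, and all genes tested include those with as few as 20 reads. Of the 17 class IIa kinases tested, 2 were called higher in animal 2 with no fold minimum and none lower. By mean TPM in the gene table, which ranks the genes of each list here, the highest kinase levels were those of Stk11, which activates the AMPK-related kinases (61.7 TPM in animal 2 and 50.3 TPM in animal 1), Camk2d, the main cardiac CaM kinase II gene (58.3 and 50.1 TPM), the AMPK subunit gene Prkaa2 (33.6 and 29.0 TPM) and the salt-inducible kinase gene Sik3 (27.3 and 23.5 TPM). Camk1 (27.7 and 22.4 TPM) and Sik1 (27.6 and 19.5 TPM) were above Sik3 in animal 2 and below it in animal 1. The 14-3-3 genes together had a higher level than either family, 516 TPM in animal 2 and 418 TPM in animal 1. Of 7 genes for 14-3-3 proteins 4 were called higher in animal 2 with no fold minimum. Ywhae had 221 and 186 TPM with a ratio of 1.06, Ywhag 121 and 97.9 TPM with 1.03, Ywhaz 62.9 and 50.1 TPM with 1.08, and Ywhah 46.5 and 34.3 TPM with 1.15, and of these Ywhag was not called.

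Phosphatase genes, which include those of calcineurin, summed to 205 and 172 TPM in animal 2 and animal 1, and 1 of 8 tested was called higher in animal 2 with no fold minimum, which holds for the counts of the next lists too. They were led by Ppp2r1a (73.5 and 61.8 TPM), Ppp3cb (26.8 and 24.0 TPM), Ppp3r1 (25.6 and 23.0 TPM) and Ppp2ca (23.2 and 19.6 TPM). The corepressors that class IIa proteins bind, with Hdac3, summed to 263 and 222 TPM and none of 8 was called. They include Ctbp1 (93.7 and 79.5 TPM), Ncor1 (54.4 and 47.5 TPM) and Tbl1xr1 (27.8 and 21.2 TPM). The list of other deacetylase genes, of classes I, IIb and IV, leaves out the class I gene Hdac3 (16.3 and 12.8 TPM), counted with the corepressors. Its 6 genes summed to 46.0 and 39.9 TPM, below the class IIa sum of gene levels in each heart, and none was called. Over complete coding transcripts the class IIa sum was 32.1 TPM in the first transcript table, and the other deacetylases were not counted in that way. Within this list of 6 the highest were Hdac2 (22.9 and 19.6 TPM), Hdac11 (8.10 and 6.68 TPM), Hdac1 (6.89 and 5.84 TPM) and Hdac6 (3.48 and 3.32 TPM). Of the MEF2 kinases and coactivators none of 10 was called, and the highest by mean TPM were Kat2b (34.6 and 30.01 TPM), Carm1 (27.0 and 22.7 TPM), Mapk14, which encodes p38 alpha (23.2 and 19.8 TPM), and Ncoa2 (17.5 and 14.4 TPM). Ep300 had 16.6 and 14.9 TPM, below Ncoa2 in animal 2 and above it in animal 1.

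The 4 partners of MEF2 on cardiac promoters with the highest mean TPM had levels between 33.0 and 74.4 TPM. Tead1 had 74.4 TPM in animal 2 and 67.1 TPM in animal 1, Gata4 43.8 and 39.6 TPM, Srf 46.8 and 34.5 TPM and Myocd 36.3 and 33.0 TPM. Nkx2-5, with 38.3 and 30.2 TPM, was above Myocd in animal 2 and below it in animal 1. Of 11 partners tested with no fold minimum, Srf was called higher in animal 2 (ratio 1.10) and Tbx5 lower (ratio 0.757). Over all genes tested, 6.6% were called higher and 4.75% lower. Target genes were led by the muscle creatine kinase gene Ckm (1531 and 1293 TPM), Des (538 and 478 TPM), Hrc (379 and 325 TPM) and the glucose transporter gene Slc2a4 (160 and 142 TPM). Of 11 tested, 5 were called higher in animal 2 with no fold minimum, where 6.6% of all genes tested were. These 5 target genes were named after their values were seen. They were Ppargc1a (ratio 1.32), Nr4a1 (1.44), Klf2 (1.27), Jun (1.26) and Xirp1 (1.09). Des, Xirp2 and Slc2a4 were called lower with ratios of 0.968, 0.969 and 0.948, and under total read counts these ratios were 1.02, 1.02 and 1.00. There Des and Xirp2 were called higher (exact binomial test, adjusted p = 0.00262 and 0.00357), and Slc2a4 was not called. Under spike-in totals only Slc2a4 of these genes was called lower (ratio 0.965), with Des and Xirp2 at 0.986 and uncalled. Mmp10 was at 0 reads in both hearts, which allows up to 0.0718 CPM.

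Transcripts of each gene were divided differently by the 2 transcript tables, although both list all transcripts of the 8 genes. The overlap of the shares in both tables, 100% if they were the same, was highest for Mef2d, at 96.1% in animal 2 and 95.1% in animal 1. It was 81.1% and 87.4% for Hdac9, 70.6% and 77.9% for Hdac4, 68.3% and 82.4% for Mef2c, 67.0% and 61.7% for Hdac7, 62.1% and 61.8% for Hdac5, and 58.3% and 66.7% for Mef2a. The transcript with the highest mean share was the same in both tables for Mef2a, Mef2d, Hdac7 and Hdac9, and differed for Mef2c, Hdac4 and Hdac5. With 3 to 6 reads the shares of Mef2b could not be read, since the second table gave all of them to Mef2b-201 in animal 2 and to Mef2b-202 in animal 1.

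Transcripts were grouped by their annotation as coding with a complete coding sequence, coding but cut short in the annotation, subject to nonsense-mediated decay, retaining an intron, or otherwise non-coding. Apart from Mef2b, Mef2d and Hdac9 had the highest shares of complete coding RNA. The complete coding share of TPM was 97.4% ± 1.15 for Mef2d and 95.3% ± 1.70 for Hdac9 in the first table (SD, n = 2). It was 81.0% ± 0.602 for Mef2a, 56.6% ± 1.98 for Hdac7, 54.8% ± 0.691 for Mef2c, 33.9% ± 0.196 for Hdac4 and 27.1% ± 3.81 for Hdac5 (SD, n = 2). In the second table it was 98.4% ± 0.561 for Mef2d, 87.9% ± 2.44 for Hdac9, 83.0% ± 0.891 for Mef2a, 70.6% ± 4.31 for Hdac7, 58.5% ± 4.54 for Mef2c, 42.3% ± 3.82 for Hdac5 and 38.5% ± 2.58 for Hdac4 (SD, n = 2). The retained-intron share of TPM was highest for Hdac5, at 54.3% in animal 2 and 55.0% in animal 1, against 34.4% as the mean of the second table. A further 13.0% ± 0.163 lay in Hdac5-205, annotated to nonsense-mediated decay (SD, n = 2). Hdac7 had the next highest retained-intron share of TPM, with means of 27.6% in the first table and 12.6% in the second. By reads the shares differed from those by TPM, which counts RNA per length. In the first table the complete coding share by reads was 52.6% for Hdac5 and 80.0% for Hdac4. The retained-intron share by reads was 20.5% for Hdac5 and 20.8% for Hdac7, and 8.33% and 13.3% in the second table. By reads Hdac5 was therefore not above Hdac7. Total RNA includes unspliced RNA, and its part in these classes was not tested.

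**Figure D3:**
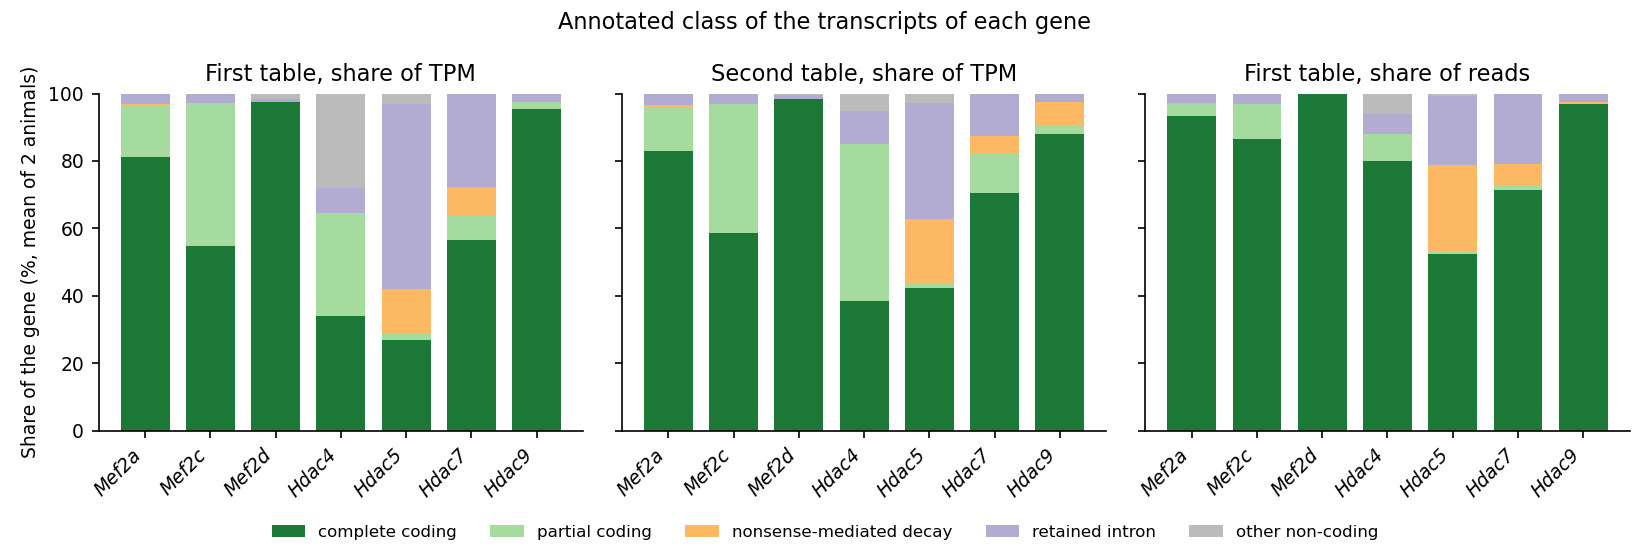
Share of each gene, as a mean of both animals in percent, in transcripts of 5 annotated classes, by TPM in the first and second transcript tables and by reads in the first; Mef2b is left out for its few reads. Hdac5 has the lowest complete coding share by TPM in the first table (27.1%), and Mef2d the highest in all 3 panels.

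Levels counted over complete coding transcripts alone, added after seeing the data, changed the order of the class IIa genes. Mef2d had 50.8 TPM in animal 2 and 44.6 TPM in animal 1. Mef2a had 50.6 and 41.8 TPM, so these overlapped. Hdac5 had 14.8 and 11.5 TPM and Mef2c 13.7 and 11.7 TPM, which overlapped too. Hdac9 followed with 7.97 and 7.48 TPM, above Hdac4 (6.18 and 5.17 TPM) and Hdac7 (6.03 and 5.01 TPM) in both hearts. Hdac9 was thus lowest of the class IIa genes by gene level and above Hdac4 and Hdac7 by complete coding level. In the second table Hdac9 had 7.84 TPM in animal 2 and 8.89 TPM in animal 1, against 7.75 and 6.94 TPM for Hdac4 and 7.95 and 7.27 TPM for Hdac7, so there its range lay above that of Hdac4 and overlapped that of Hdac7.

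The MEF2 genes share alternative coding exons that change the protein beyond the DNA-binding part. In Mef2a, Mef2c and Mef2d the exon after the MEF2 domain comes as an alternative pair, an upstream and a downstream exon of which the complete coding transcripts that have this region hold at most 1. A short cassette exon further on, often called the beta exon, adds a few acidic residues and is known to be included in striated muscle and brain. In Mef2d the upstream exon is chr3:88158034-88158171 (138 bases) and the downstream exon chr3:88158221-88158355 (135 bases), on the plus strand of mm10. They are shown because the upstream exon had its highest share of assigned TPM in Mef2d among the 3 genes. The exon is in capitals, with 9 flanking coding bases on each side.
Mef2d upstream: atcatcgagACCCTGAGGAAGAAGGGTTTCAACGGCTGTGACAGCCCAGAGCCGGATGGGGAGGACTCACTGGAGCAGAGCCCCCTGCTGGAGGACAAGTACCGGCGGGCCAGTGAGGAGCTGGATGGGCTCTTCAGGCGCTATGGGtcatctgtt
Mef2d downstream: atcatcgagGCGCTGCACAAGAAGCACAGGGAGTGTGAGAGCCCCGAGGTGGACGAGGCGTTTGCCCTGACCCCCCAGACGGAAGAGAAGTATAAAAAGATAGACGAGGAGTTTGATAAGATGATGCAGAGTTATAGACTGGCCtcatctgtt
The flanks are the same for both exons, and both lengths are multiples of 3, so either joins the same neighbours in frame. The downstream exon of Mef2c and the upstream exon of Mef2d, both 138 bases long, matched at 50 bases when set side by side without gaps. These are not corresponding exons. The corresponding exons of Mef2c and Mef2d differ in length and were not compared.

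By the TPM assigned to annotated transcripts, all 3 genes used the upstream exon more. Of the TPM in transcripts with either exon, the upstream exon held 82.1% in animal 2 and 85.5% in animal 1 for Mef2d, 77.7% and 79.3% for Mef2a, and 62.3% and 57.4% for Mef2c. The second table gave means of 83.1% ± 2.08 for Mef2d, 74.7% ± 1.98 for Mef2a and 68.5% ± 0.487 for Mef2c (SD, n = 2). The share was over 50% in both animals and both tables for each gene. In the second table the upstream share of Mef2c rested in part on Mef2c-205, a partial transcript of 873 bases. Mef2c-205 had 5.72 of the 12.4 upstream TPM in animal 2 and 2.47 of 10.5 in animal 1. Mef2c-201, the leading transcript of Mef2c in the second table, holds the downstream exon. In Mef2d the downstream exon is annotated in a single transcript, Mef2d-202, of 1767 bases. The upstream exon of Mef2d is annotated in 3, among them Mef2d-201 of 5401 bases. Both tables use the same annotated transcripts, and the effect of this annotation on the shares was not tested. Of the TPM of the 22 Mef2c transcripts that span the upstream exon (mm10 chr13:83625265-83625408), 36.7% ± 1.05 lay in those that hold it (SD, n = 2). Of the TPM of the 20 that span the downstream exon (chr13:83625470-83625607), 31.9% ± 3.93 lay in those that hold it (SD, n = 2).

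The short exon differed between the genes. It is chr7:67244521-67244544 in Mef2a and chr13:83654598-83654621 in Mef2c, of 24 bases each, and chr3:88161781-88161801 in Mef2d, of 21 bases. All 3 lengths keep the reading frame, and the exons of Mef2a and Mef2c matched at 17 of 24 bases. They are shown with the exon in capitals and 9 flanking coding bases.
Mef2a short exon: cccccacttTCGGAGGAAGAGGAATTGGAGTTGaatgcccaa
Mef2c short exon: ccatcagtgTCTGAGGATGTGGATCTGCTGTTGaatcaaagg
Mef2d short exon: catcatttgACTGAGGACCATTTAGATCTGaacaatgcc
Transcripts with the short exon held 72.4% of the spanning TPM of Mef2a in animal 2 and 73.8% in animal 1. For Mef2c it was 44.7% and 43.8%, and for Mef2d 15.95% and 15.93%. The ranges of the 3 genes did not overlap in either table, the second table giving 69.4% ± 2.08 for Mef2a, 43.9% ± 4.18 for Mef2c and 15.9% ± 0.695 for Mef2d (SD, n = 2). In Mef2d the exon is annotated in a single transcript, Mef2d-203, of 1791 bases, while Mef2d-201 without it has 5401. In Mef2a the transcripts that hold it include the longest one, Mef2a-208, of 5538 bases. The tables share these annotated transcripts, so their likeness here is not independent. The effect of the transcript lengths on the shares was not tested.

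An extension of 96 bases at the start of the last coding exon of Mef2c (chr13:83662307-83662402) encodes a region that in cell assays lowers transcriptional activity. Transcripts with it held 54.0% of the TPM covering this exon in animal 2 and 56.3% in animal 1 by the first table. The second table gave 73.8% ± 3.48 (SD, n = 2), so the tables differed here by more than the animals did.

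**Figure D4:**
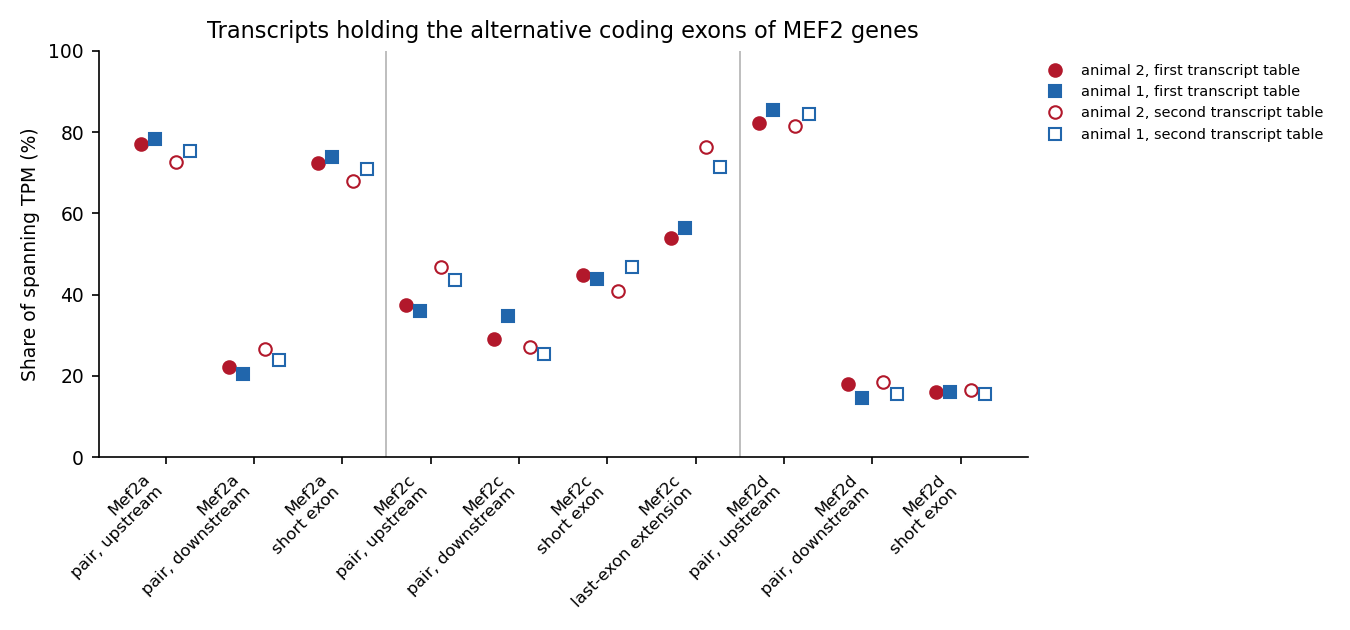
Share of the TPM of spanning transcripts, in percent, that lay in transcripts holding each alternative coding segment of Mef2a, Mef2c and Mef2d, for animal 2 (circles) and animal 1 (squares) in the first (filled) and second (open) transcript table. The short exon was held by 72.4% and 73.8% in Mef2a and by 15.95% and 15.93% in Mef2d in the first table.

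By transcript, Mef2a was mainly Mef2a-208, which holds the upstream and the short exon and has 498 codons. It held 59.8% of the gene's TPM in animal 2 and 60.7% in animal 1, and 55.6% ± 2.48 in the second table (SD, n = 2). The downstream exon was carried by Mef2a-201 in the first table (20.8% ± 1.22) and by Mef2a-203 in the second (22.2% ± 1.19) (SD, n = 2). Mef2a-203 was listed at 0 in the first table, and Mef2a-201 had 2.34e-05 TPM in animal 2 and 6.21e-10 TPM in animal 1 in the second. Both encode 492 codons. The partial transcript Mef2a-205 held 15.3% ± 0.0943 in the first table (SD, n = 2). Mef2d was divided over 4 complete coding transcripts, led by Mef2d-201 with 50.7% in animal 2 and 55.0% in animal 1, followed by Mef2d-202 (15.8% ± 2.47), Mef2d-203 (15.5% ± 0.192) and Mef2d-204 (13.2% ± 1.58; SD, n = 2). Mef2c had the most annotated transcripts, 31. Its leading transcript was Mef2c-212 in the first table (25.4% in animal 2 and 23.7% in animal 1) and Mef2c-201 in the second (21.1% and 18.4%), while the partial Mef2c-217 held 20.6% ± 0.128 and Mef2c-219 14.03% ± 2.85 in the first (SD, n = 2). The partial Mef2c-205 held 6.57% ± 1.23 in the first table and 15.2% ± 7.98 in the second (SD, n = 2).

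The class IIa genes share a run of 8 consecutive coding exons of the same lengths (108, 56, 88, 120, 98, 119, 134 and 85 bases, 808 in all), which lies in the deacetylase domain. Over the 269 whole codons of the run, Hdac4 and Hdac5 encoded the same residue at 77.7%, the highest of the 6 pairs, and Hdac5 and Hdac7 at 70.3%, the lowest. The histidine codon in the place of the catalytic tyrosine is in the seventh exon of the run in all 4 genes. It lies at mm10 chr1:91945960-91945962 in Hdac4, chr11:102196599-102196601 in Hdac5, chr15:97796158-97796160 in Hdac7 and chr12:34107278-34107280 in Hdac9. It is shown in capitals with 15 coding bases before it and 12 after it. The same place in the class I genes Hdac1 (chr4:129518901-129518903) and Hdac2 (chr10:36997057-36997059) has a tyrosine codon.
Hdac4: gcccttgagggaggcCATgacctgacagcc
Hdac5: gccctggagggaggcCATgacttgaccgcc
Hdac7: gccttagagggtggaCATgacctcacggcc
Hdac9: gctctggaaggaggaCATgatctgacagct
Hdac1: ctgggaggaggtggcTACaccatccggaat
Hdac2: ctcggtggaggaggcTACacaatccggaat

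Hdac9 had 3 of 10 annotated transcripts with all 8 exons, against 3 of 12 for Hdac4, 5 of 20 for Hdac5 and 7 of 13 for Hdac7, but little of its TPM lay in them. Transcripts with all 8 exons held 35.9% of the TPM of Hdac4 in animal 2 and 38.8% in animal 1, 42.9% and 37.2% for Hdac5, and 58.0% and 53.7% for Hdac7. For Hdac9 the share was 7.63% in animal 2 and 3.52% in animal 1, below every value of the other genes. The second table gave 3.80% and 3.15% for Hdac9, against 40.4% and 42.4% for Hdac4, 64.8% and 58.3% for Hdac5 and 69.0% and 65.9% for Hdac7. These shares are of all TPM of a gene, short transcripts included. By reads in the first table the same transcripts held 1528 of 1805 in animal 2 and 1398 of 1692 in animal 1 for Hdac4. They held 2650 of 3304 and 2413 of 3150 for Hdac5, and 809 of 1121 and 720 of 1042 for Hdac7. For Hdac9 they held 118 of 993 and 81.0 of 1004. The set includes Hdac5-205, annotated to nonsense-mediated decay, and Hdac4-208, annotated as non-coding. With 2 animals no test of the difference between Hdac9 and the other genes was made.

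**Figure D5:**
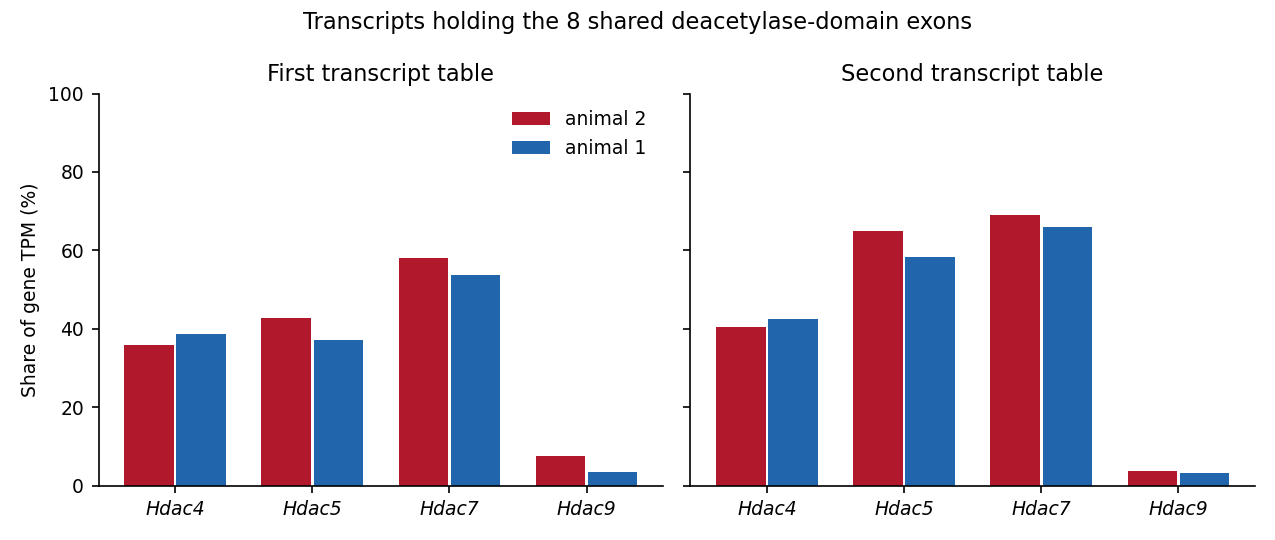
Share of the gene's TPM, in percent, in transcripts that hold all 8 shared exons of the deacetylase domain, for animal 2 (left bars) and animal 1 (right bars) in both transcript tables. Hdac9 is at 7.63% or below in every bar, and the other genes are at 35.9% or above.

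The Hdac9 RNA of these hearts was mostly in complete coding transcripts without the shared exons. The short form often called MITR or HDRP, a MEF2-interacting repressor known from striated muscle, lacks the deacetylase domain. The 3 complete coding transcripts with none of the shared exons, Hdac9-201, Hdac9-203 and Hdac9-208, have 588, 544 and 560 codons. They held 88.9% of the TPM in animal 2 and 90.6% in animal 1, from 850 and 885 reads. The 4 complete coding transcripts with exons of the shared run held 7.63% and 3.52%, from 118 and 81.0 reads. Hdac9-201 led with 61.5% in animal 2 and 57.6% in animal 1, and 53.3% ± 0.903 in the second table (SD, n = 2). Hdac9-208 followed with 24.3% ± 1.88, and Hdac9-203 with 5.83% ± 2.08 in the first table and 13.8% ± 1.12 in the second (SD, n = 2). Hdac9-201 ends where the exon runs on past the splice site used by the long form. Whether Hdac9-203 and Hdac9-208 end in the same way was not checked. The extension in Hdac9-201, chr12:34373830-34373877 on the minus strand of mm10, adds 48 coding bases or 16 codons before the stop codon. It is shown in capitals, with 12 coding bases before it and the stop codon after it in lower case.
Hdac9 extension: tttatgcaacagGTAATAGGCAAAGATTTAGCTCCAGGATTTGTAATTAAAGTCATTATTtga

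Hdac4 was led by its complete coding transcript Hdac4-202 (1076 codons) in the first table, with 27.8% of TPM in animal 2 and 24.2% in animal 1, and 69.7% of the reads as a mean. Short transcripts made up most of the rest by TPM. Hdac4-205 held 18.1% ± 1.92, Hdac4-204 17.5% ± 6.95 and Hdac4-206 12.6% ± 1.53 (SD, n = 2), and Hdac4-204 was listed at 0 in the second table, where Hdac4-205 led with 29.2% ± 1.87. The other complete coding transcript, Hdac4-201, held 7.95% ± 2.35 in the first table and 13.2% ± 0.284 in the second (SD, n = 2).

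Hdac5 was led in the first table by the retained-intron transcripts Hdac5-217 (23.9% in animal 2 and 19.6% in animal 1) and Hdac5-211 (20.2% and 21.8%). In the second table Hdac5-211 held only 1.27% ± 1.11 and the complete coding Hdac5-204 led with 30.5% ± 3.14, against 16.3% ± 4.54 in the first (SD, n = 2). The complete coding Hdac5-202 held 10.3% ± 1.05 in the first table and 2.79% ± 0.631 in the second (SD, n = 2). Hdac5-205 held 13.0% ± 0.163 in the first table and 19.3% ± 0.783 in the second (SD, n = 2). The split of reads among its long transcripts was loose, since the deposited spread of the assignment for Hdac5-204 was 183 of 1198 reads in animal 2 and 174 of 845 reads in animal 1.

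Hdac7 had the largest difference in transcript use between the hearts among the 7 genes that could be read. Hdac7-202 held 30.8% of TPM in animal 2 and 13.8% in animal 1, and Hdac7-204 held 1.35% in animal 2 and 13.9% in animal 1. The second table gave 39.8% and 27.1% for Hdac7-202 and 15.96% and 30.4% for Hdac7-204, the same direction. For Hdac7-204 the deposited spread of the assignment, 42.9 reads in animal 2 and 89.2 in animal 1, stood beside 18.6 and 187 reads. The retained-intron Hdac7-211 held 20.6% ± 1.54 in the first table and 4.86% ± 0.476 in the second, and the complete coding Hdac7-205 held 15.2% ± 5.24 and 8.47% ± 2.63 (SD, n = 2). The overlap of the shares in the 2 animals was 69.7% for Hdac7 in the first table, against 84.4% to 98.1% for Mef2a, Mef2c, Mef2d, Hdac4, Hdac5 and Hdac9.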

How the data were processed

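Total RNA of 2 mouse hearts, 1 library each and 1 group, was sequenced. Per the labels and the readme deposited with each library, the build was mm10 and the annotation GENCODE M21; the sources used here name no aligner, no tool version and no strand setting of the counting. The authors deposited, per the file headers, a gene table and a first transcript table in the layout of RSEM, with expected counts, TPM and an isoform percent, and a second transcript table in the layout of kallisto, with estimated counts and TPM. TPM is scaled to a fixed sum over all entries, so a gene's TPM moves when abundant RNAs move.

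The members, lists and rules were chosen with earlier results of these data known. TPM is given as deposited. Expected counts were rounded, scaled by TMM (edgeR 4.0.16, R 4.3.3) and compared between the libraries by exact binomial tests (scipy 1.17.1) over 16133 genes with at least 20 reads, adjusted by Benjamini-Hochberg at 0.05, with a 2-fold minimum. Depth was 41790009 and 41862417 reads. With 1 group no condition was compared. Log2 ratios used a prior count of 0.5. Transcript shares are of the gene's TPM. Classes, exons and sequences were read from the GENCODE M21 annotation and transcripts of mm10. No protein sequence was used here. Alternatives were DESeq2 1.42.0 size factors, total counts, spike-in totals, no count filter, no fold minimum, the other tables, rescaled TPM, coding transcripts and leaving out each animal. Named were all members, transcripts with at least 10% of their gene in either table (at most 5 a gene) and the 4 highest genes of each pathway list. 1 gene of a pathway list and 1 exon sequence are not reported here.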

Additional observations from a re-analysis of the deposited data

How the results depend on the processing

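Of the results that answer a comparison, 29 values under an alternative kept their call or stayed within their spread and 11 moved. Of the other values 86 did so, 39 moved and 3 turned sign. Of 10 exon inclusions, 7 moved in the second table. The kept values include some that could not have moved. With 2 animals, either animal alone always lies within the SD of their mean. Leaving out an animal could therefore not move a sum, ratio, level or share. Shares limited to transcripts in both tables were also fixed, because both list all transcripts of these genes. The number of kept values is therefore no measure of robustness. The summed MEF2 level moved to 148.7 TPM in the second transcript table, 309.9 TPM when rescaled to nuclear protein-coding genes and 106.7 TPM over complete coding transcripts. The class IIa sum moved to 199.4 TPM when rescaled and 32.1 TPM over complete coding transcripts. The ratio of class IIa to MEF2 moved to 0.531 in the second table, and to 0.300 and 0.318 over complete coding transcripts in the first and second tables; of 8 places in the order 3 were kept over complete coding transcripts. With no fold minimum 1 member and 17 pathway genes were called, against 0 and 0. The causes of these moves were not tested, apart from rescaling, which multiplies every gene. Leaving out each animal gave 119.7 to 138.8 TPM for MEF2, 79.3 to 86.6 TPM for class IIa, 0.624 to 0.662 for the ratio and 6 to 8 places kept. The log2 ratio of Hdac5, -0.00802, turned to 0.0713 under total counts, 0.0177 under spike-in totals and 0.0165 in the second table, all uncalled; the cause was not tested. No paired analysis was possible because there is 1 group. The depth leaves Mef2b unread, and shares of transcripts that overlap rest on how each tool divides shared reads.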
